A study of Rattus norvegicus with 12 samples.

Results

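The genes that make reactive oxygen species and the genes that remove them were examined in primary rat atrial fibroblasts. The 10 genes, of 22850 features counted, were chosen by name: 4 genes of NADPH oxidases (Nox4, Cyba, Cybb and Ncf1), 3 superoxide dismutases (Sod1, Sod2 and Sod3), catalase (Cat) and 2 glutathione peroxidases (Gpx1 and Gpx3). All 10 passed the filter on low counts in every comparison. The cells came from the atria of Sprague-Dawley rats 1 to 3 days old and were enriched by adhesion to plastic for 45 min, without sorting. All groups received angiotensin II (AngII, the effector hormone of the renin-angiotensin system) at 1 μmol/L for 48 h in medium with 2% FBS. The AngII group received nothing else, the AngII+HNG group was given HNG, a humanin analogue in which a glycine replaces a serine, at 10 μmol/L from 1 h before AngII, and the AngII+MOTS-c group was given MOTS-c, a peptide encoded in mitochondrial DNA, at 5 μmol/L from 1 h before AngII. Each group held 4 libraries, 12 in all, and no library of cells without AngII was analysed here, so each value is a level under AngII and not a response to it.

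NADPH oxidases are membrane enzymes that pass electrons from NADPH to oxygen. Nox4 is usually described as the main form in fibroblasts and releases mostly hydrogen peroxide. Cybb (also called NOX2 or gp91phox) is the catalytic subunit of the phagocyte enzyme, which makes superoxide once the cytosolic factor Ncf1 (p47phox) joins it. Cyba (p22phox) is the membrane partner that both catalytic subunits need. Superoxide dismutases turn superoxide into hydrogen peroxide in the cytosol (Sod1), the mitochondrial matrix (Sod2) and the extracellular space (Sod3), and catalase and the glutathione peroxidases reduce the peroxide further. Gpx1 works inside the cell and Gpx3 is secreted, and both are selenoproteins. Angiotensin II is a well-known activator of NADPH oxidases in cardiovascular cells.

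The start regions of Gpx1 and Gpx3, which rose with HNG, and of Nox4, which was lower with HNG than with MOTS-c in the test but did not pass it against AngII, are shown so that the genes can be compared in sequence. The windows come from RefSeq on the rat build GRCr8 and run from 250 bases before the annotated transcript start to 30 bases after it, read 5′ to 3′ on the strand of the gene. Capitals mark the motifs found.
Gpx1 (chr8:117905212-117905491, + strand): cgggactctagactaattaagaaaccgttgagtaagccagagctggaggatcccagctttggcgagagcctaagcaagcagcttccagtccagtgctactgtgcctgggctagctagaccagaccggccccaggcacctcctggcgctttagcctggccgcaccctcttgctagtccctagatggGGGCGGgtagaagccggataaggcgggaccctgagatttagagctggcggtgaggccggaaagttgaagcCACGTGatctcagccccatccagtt
Gpx3 (chr10:39529085-39529364, + strand): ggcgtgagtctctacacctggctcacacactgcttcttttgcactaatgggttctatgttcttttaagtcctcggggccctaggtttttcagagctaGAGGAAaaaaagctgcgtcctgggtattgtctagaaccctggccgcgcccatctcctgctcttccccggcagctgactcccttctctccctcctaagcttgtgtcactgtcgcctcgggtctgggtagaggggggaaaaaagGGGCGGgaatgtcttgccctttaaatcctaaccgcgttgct
Nox4 (chr1:150313639-150313918, + strand): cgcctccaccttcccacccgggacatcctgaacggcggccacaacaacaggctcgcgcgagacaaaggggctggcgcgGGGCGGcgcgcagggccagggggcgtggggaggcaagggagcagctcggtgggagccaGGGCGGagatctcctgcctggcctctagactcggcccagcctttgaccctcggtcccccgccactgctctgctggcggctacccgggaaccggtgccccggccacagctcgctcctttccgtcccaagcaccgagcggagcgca
The Gpx1 window held the E-box CACGTG at bases 256 to 261 of the window, just past the start, and the GC box GGGCGG at bases 186 to 191. The Gpx3 window held GAGGAA, the core of sites for PU.1 and other ETS factors, at bases 98 to 103, and a GC box at bases 240 to 245. The Nox4 window held 2 GC boxes, at bases 79 to 84 and 137 to 142. The other motifs searched were TGACNNNGC, the core of the antioxidant response element, and TATAAA. All 5 were searched on both strands of windows with 50 bases after the start, and none of these matches overlapped another. Among 27457 rat promoters of that length, GGGCGG was found in 34.9%, GAGGAA in 27.5%, TATAAA in 14.3%, TGACNNNGC in 12.2% and CACGTG in 6.65%. Of the 9 members with a promoter in the table, Ncf1 and Sod2 held TGACNNNGC, Cybb and Cat held GAGGAA, Sod1 held TATAAA, and Cyba, Ncf1, Sod1 and Sod2 held GGGCGG. These matches describe letters and not binding.

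Levels per gene length differed widely between the members. FPKM, which divides a count by gene length and by library total, places them on a common scale, as the plot of FPKM by gene shows. With AngII alone the order was led by Sod1 at 118 ± 8.14 FPKM (mean ± SD, n = 4), followed by Gpx3 at 69.5 ± 4.80 and Gpx1 at 60.0 ± 4.05. Gpx3 and Gpx1 overlapped between libraries (64.5 to 76.1 against 56.9 to 65.9 FPKM), and they were the only neighbours in the order that did. Below them came Cyba at 47.6 ± 1.28 FPKM, Sod3 at 33.8 ± 0.684, Sod2 at 27.5 ± 1.15 and Cat at 22.0 ± 0.600. The catalytic and cytosolic oxidase genes stood last, with Cybb at 15.7 ± 1.70 FPKM, Ncf1 at 10.8 ± 1.32 and Nox4 at 5.16 ± 0.515. The membrane partner Cyba was thus the most abundant of the 4 oxidase genes. The FPKM of Nox4 is less certain than that of the other members. The length implied by its counts and FPKM ran from 2852 to 3854 bases over the 12 libraries, a ratio of 1.35, against at most 1.01 for the other 9 members. Between libraries, levels are therefore given as CPM, in which counts are set to an equal library size with TMM factors, and those values are always listed for replicates 1 to 4 in that order.

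**Figure D1:**
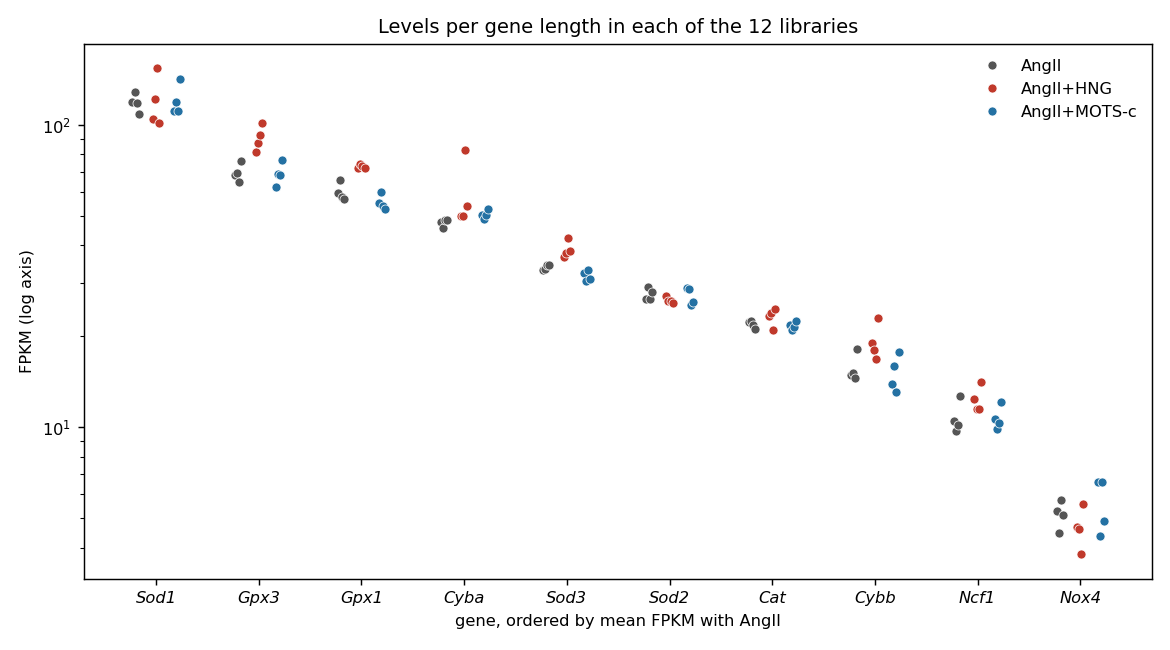
FPKM (log axis) of the 10 genes in each of the 12 libraries, 1 point per library and coloured by treatment, with genes ordered by their mean with AngII. Sod1 leads at 118 FPKM and Nox4 is last at 5.16 FPKM.

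Depth was similar in all libraries, at 27960586 to 38322354 counts, so that 3 counts, taken as the floor, equalled 0.0783 to 0.107 CPM, and even Nox4, the lowest member, rested on 431 to 652 counts per library. Such floors cover counting error only. All 12 fibroblast markers examined were detected at 1 CPM or more, with a sum of 64748 to 72997 CPM. Cardiomyocyte markers summed to 6051 to 8118 CPM and macrophage markers to 322 to 564 CPM. Of the markers of other blood cells, 3 of 8 for neutrophils (S100a9, Mpo and Elane), 3 of 6 for lymphocytes (Cd3e, Ms4a1 and Nkg7) and 3 of 7 for red cells (Hba-a1, Hbb and Hbb-bs) had 0 counts in all 12 libraries. The others were detected in at least 1 library and none had a mean of 1 CPM, the highest being Csf3r of the neutrophil list, above 0 in all 12 libraries at 0.105 to 0.532 CPM, and Klf1 of the red cell list, at up to 0.521 CPM. AngII+HNG replicate 3 stood apart: of 14352 genes it was the highest library in 17.7% and the lowest in 19.2%, against 5.84% to 12.5% and 5.94% to 11.3% for the other 11 libraries. The study describes the 4 samples of a group as independent and as biological replicates, while the labels do not say which came from separate cultures. In the library names replicates 2 and 3 carry the same number within each group, and what that number stands for is not given in the labels. P-values therefore measure only the spread between these samples. With replicates 2 and 3 summed into 1 sample, 577 in place of 869 genes were called for HNG against AngII, and Gpx1 and Gpx3 kept their calls.

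HNG was compared with AngII alone to ask whether the peptide changes these genes in cells under AngII. Gpx1 and Gpx3 rose with HNG, by 20.0% and 28.6%, and the other 8 members did not pass the test. Across all 14524 genes tested with edgeR's quasi-likelihood test, 3.40% were higher with HNG and 2.58% were lower at an adjusted p-value below 0.05. Of the 10 members 2 were higher and 0 lower, and 6 had an unadjusted p below 0.05, against 2943 or 20.3% of all genes tested. The 2 groups did not overlap for 5 members, Nox4, Cyba, Sod3, Gpx1 and Gpx3, where 13.7% of all genes did not overlap. The median log2 fold change of the members was 0.18, against 0.0043 over all genes tested. DESeq2 called Sod3 besides Gpx1 and Gpx3. Without AngII replicate 1, 2 or 3 the number of all genes called was 431, 485 or 512 in place of 869, and Gpx1 and Gpx3 kept their calls.

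Gpx3, the secreted glutathione peroxidase, had the larger log2 fold change of the 2 members called for HNG against AngII. The AngII libraries held 112, 113, 105 and 125 CPM of Gpx3. The AngII+HNG libraries held 132, 141, 149 and 163 CPM. The AngII+MOTS-c libraries held 101, 111, 111 and 125 CPM. All 4 HNG libraries lay above all 8 others, while those of AngII and AngII+MOTS-c overlapped. The mean rose from 114.0 ± 8.28 to 146.1 ± 13.2 CPM with HNG, a log2 fold change of 0.36 ± 0.066 (SE, edgeR adjusted p = 0.00643). Against AngII+MOTS-c the log2 fold change was 0.38 ± 0.071 (edgeR adjusted p = 0.00861).

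Gpx1, the cytosolic and mitochondrial enzyme, had the smallest SD relative to its mean of all members among the HNG libraries. Its levels with AngII were 56.8, 63.1, 55.3 and 54.9 CPM. With HNG they were 68.1, 70.5, 68.6 and 68.0 CPM. With MOTS-c they were 52.4, 56.8, 51.3 and 50.6 CPM. The HNG libraries thus stood above every library of both other groups. The mean rose from 57.5 ± 3.80 to 68.8 ± 1.15 CPM, a log2 fold change of 0.26 ± 0.050 (SE, edgeR adjusted p = 0.00793). Against MOTS-c, whose mean was 52.8 ± 2.79 CPM, the log2 fold change was 0.38 ± 0.046 (edgeR adjusted p = 6.4e-04). By p-value Gpx1 ranked 34 of 14448 genes in that comparison and 283 of 14524 in the comparison with AngII. Gpx1 and Gpx3 kept the calls of both comparisons under all 19 alternatives tried for each, and neither reached a further limit of 1.5-fold.

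**Figure D2:**
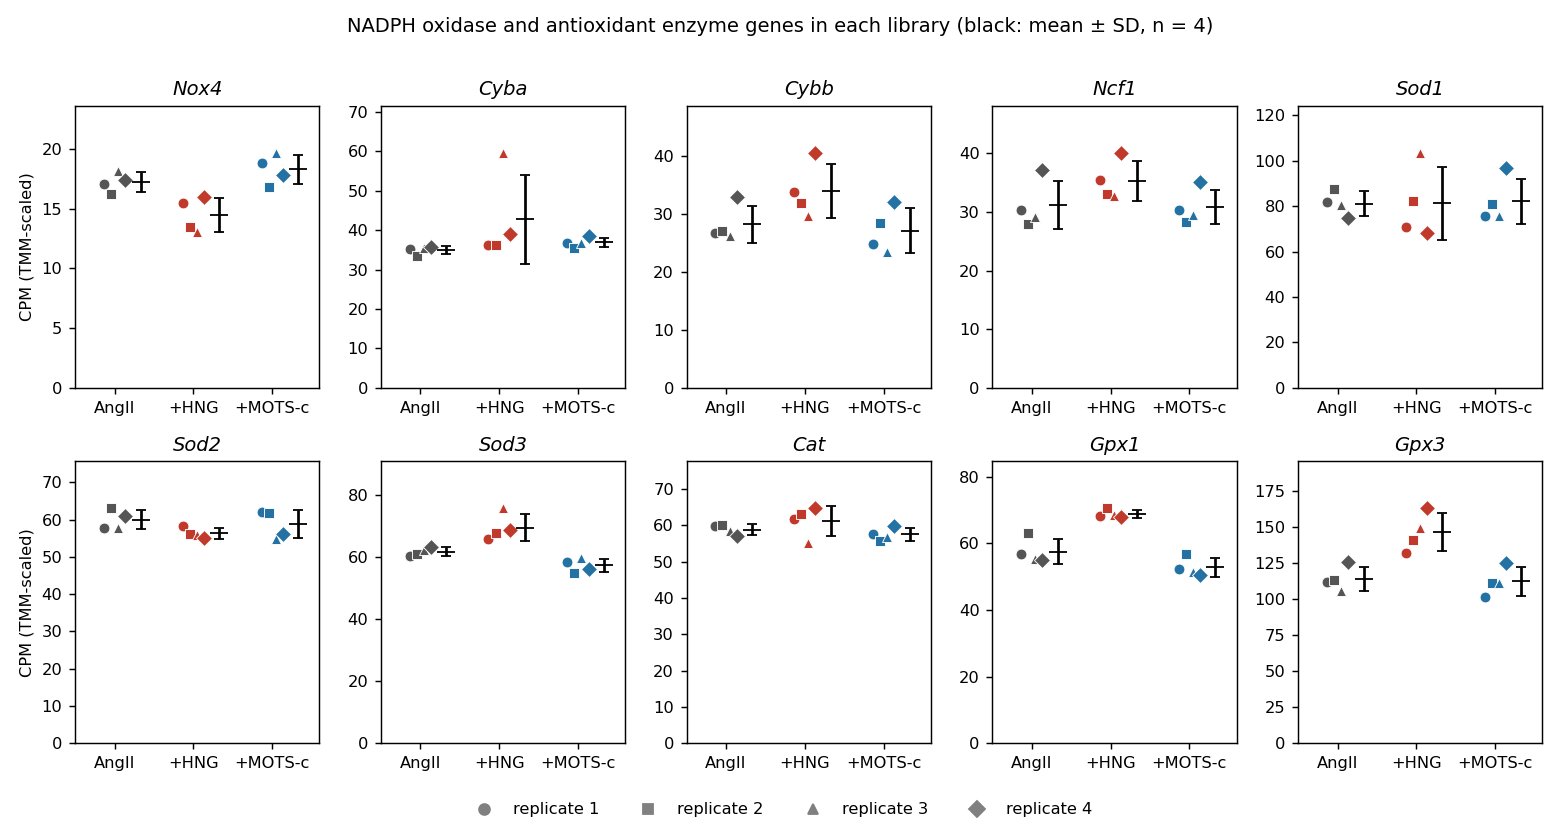
CPM of each gene in each of the 12 libraries, 1 panel per gene with its own axis from 0, marker shape giving the replicate number and black bars the mean ± SD (n = 4). The HNG libraries of Gpx1 (68.0 to 70.5 CPM) and Gpx3 (132 to 163 CPM) lie above all others, and 1 HNG library stands apart for Cyba at 59.6 CPM.

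Among the superoxide dismutases Sod3, the extracellular enzyme, separated the treatments most clearly. Its levels were 60.2, 60.9, 62.3 and 63.3 CPM with AngII. They were 65.8, 67.7, 75.7 and 68.8 CPM with HNG. They were 58.4, 55.0, 59.8 and 56.2 CPM with MOTS-c. No pair of groups overlapped, with HNG highest and MOTS-c lowest. The difference between the peptides passed the test, at a log2 fold change of 0.28 ± 0.052 (SE, edgeR adjusted p = 0.00907), although leaving out AngII+MOTS-c replicate 2 raised the edgeR adjusted p to 0.0503 and leaving out the libraries numbered 4 raised it to 0.0529. Against AngII alone, HNG gave 0.18 ± 0.049 (edgeR adjusted p = 0.0546) and MOTS-c −0.10 ± 0.038 (edgeR adjusted p = 0.924). The first of these lay close to the threshold and passed it in 6 of 19 alternatives, DESeq2 among them (adjusted p = 0.0217) and the fit without AngII+HNG replicate 1 (edgeR adjusted p = 0.0424).

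Sod1, the copper and zinc enzyme of the cytosol, gave nearly equal means in the 3 groups, 81.1 ± 5.36, 81.2 ± 16.0 and 82.1 ± 9.98 CPM with AngII, HNG and MOTS-c. Its libraries held 81.7, 87.6, 80.5 and 74.5 CPM with AngII. With HNG they held 70.7, 82.3, 103 and 68.3 CPM, a wide spread in which replicate 3 stood highest. With MOTS-c they held 75.5, 80.8, 75.6 and 96.6 CPM. All groups overlapped. The log2 fold change with HNG was 0.0069 ± 0.107, with a 95% interval from −0.22 to 0.24 (edgeR adjusted p = 0.981). It changed sign to −0.13 without AngII+HNG replicate 3.

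Sod2, the manganese enzyme of mitochondria, held 57.8, 63.0, 57.8 and 61.1 CPM with AngII. With HNG it held 58.3, 56.1, 55.8 and 54.9 CPM. With MOTS-c it held 62.1, 61.8, 54.9 and 56.2 CPM. The groups overlapped, and the log2 fold change of −0.09 ± 0.045 with HNG did not pass the test (edgeR adjusted p = 0.316). By FPKM, Sod1 made up 65.8% of the transcripts of the 3 dismutase genes with AngII, Sod3 18.8% and Sod2 15.3%. With HNG the share of Sod3 was 21.0% ± 1.79 (SD, n = 4) and with MOTS-c 17.7% ± 1.74, with ranges that overlapped (19.0% to 23.2% and 15.6% to 19.5%).

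Catalase, the peroxisomal enzyme that splits hydrogen peroxide without glutathione, was among the members that varied least. The AngII libraries had 59.8, 60.2, 58.4 and 57.0 CPM of Cat. The HNG libraries had 61.7, 63.3, 55.3 and 64.7 CPM. The MOTS-c libraries had 57.7, 55.6, 56.9 and 59.9 CPM. The groups overlapped, with AngII+HNG replicate 3 the lowest of the 12. The log2 fold change with HNG was 0.06 ± 0.052, with a 95% interval from −0.05 to 0.17 (edgeR adjusted p = 0.558). It was 0.11 without AngII+HNG replicate 3 (edgeR adjusted p = 0.153) and 0.035 without AngII+HNG replicate 4 (edgeR adjusted p = 0.789).

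Of the oxidase genes, Nox4 was lower with HNG and the phagocyte genes had higher means, but against AngII alone none of the 4 passed the test. Nox4 held 17.1, 16.2, 18.2 and 17.4 CPM with AngII. With HNG it held 15.4, 13.5, 13.0 and 16.0 CPM. With MOTS-c it held 18.8, 16.8, 19.6 and 17.8 CPM. All HNG libraries lay below all others. Against AngII the log2 fold change was −0.24 ± 0.077, from a mean of 17.2 ± 0.818 to 14.5 ± 1.45 CPM (edgeR adjusted p = 0.0899). Against AngII+MOTS-c, with a mean of 18.3 ± 1.23 CPM, it was −0.34 ± 0.083, past the threshold (edgeR adjusted p = 0.0398). That call was lost in 10 of 19 alternatives with the direction kept. The losses included the fits without AngII+HNG replicate 2 (edgeR adjusted p = 0.105), without AngII+HNG replicate 3 (0.0689), without AngII+MOTS-c replicate 1 (0.0968), without AngII+MOTS-c replicate 3 (0.107) and without AngII+MOTS-c replicate 4 (0.0618). With limma on log2(FPKM + 1) the log2 fold change was −0.22 (limma adjusted p = 0.416), where the varying length of Nox4 enters.

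Cyba, the partner of both catalytic subunits, held 35.2, 33.6, 35.5 and 35.8 CPM with AngII. With HNG it held 36.2, 36.4, 59.6 and 39.1 CPM. With MOTS-c it held 36.7, 35.6, 36.7 and 38.6 CPM. AngII+HNG replicate 3 stood far above all others, and the HNG libraries still lay above those of AngII without it. The log2 fold change of 0.30 ± 0.132 did not pass the test (edgeR adjusted p = 0.227). It was 0.09 without AngII+HNG replicate 3 (edgeR adjusted p = 0.331). Against MOTS-c the value was 0.22 ± 0.132 (edgeR adjusted p = 0.395), and 0.012 without that library.

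The phagocyte subunit Cybb held 26.8, 27.2, 26.2 and 33.1 CPM with AngII. With HNG it held 33.8, 32.0, 29.7 and 40.6 CPM. With MOTS-c it held 24.8, 28.5, 23.4 and 32.1 CPM. Replicate 4 was the highest library of each group, and the HNG libraries overlapped the other groups only through replicate 4 of those groups. The log2 fold change with HNG was 0.27 ± 0.096 (edgeR adjusted p = 0.132), and it passed the threshold without AngII replicate 4 at 0.35 (edgeR adjusted p = 0.0446). Without AngII+HNG replicate 4 it was 0.17 (edgeR adjusted p = 0.300). Against MOTS-c it was 0.32 ± 0.107 (edgeR adjusted p = 0.114), and it passed without AngII+MOTS-c replicate 4 at 0.41 (edgeR adjusted p = 0.0457), while without AngII+HNG replicate 4 it was 0.23 (edgeR adjusted p = 0.245).

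Ncf1, the factor that assembles with Cybb on activation, held 30.2, 28.0, 29.2 and 37.1 CPM with AngII. With HNG it held 35.4, 33.0, 32.6 and 40.0 CPM. With MOTS-c it held 30.4, 28.3, 29.5 and 35.1 CPM. Replicate 4 was again the highest of each group, and it alone made the other groups overlap with HNG. The log2 fold change with HNG was 0.19 ± 0.089 against AngII (edgeR adjusted p = 0.271) and 0.20 ± 0.080 against MOTS-c (edgeR adjusted p = 0.202). Against AngII it was 0.28 without AngII replicate 4 (edgeR adjusted p = 0.0509) and 0.12 without AngII+HNG replicate 4 (edgeR adjusted p = 0.519). Against MOTS-c it was 0.13 without AngII+HNG replicate 4 (edgeR adjusted p = 0.381).

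Markers of macrophages, the cells in which Cybb and Ncf1 are best known, summed higher in the HNG libraries. Replicate 4 of each group had the highest marker sum of its group as well as the highest Cybb and Ncf1, but AngII+HNG replicate 3 stood second of its group in markers, at 492 CPM, and lowest in both genes. The summed level of 17 macrophage markers was 327 to 395 CPM with AngII, 434 to 564 CPM with HNG and 322 to 388 CPM with MOTS-c, none of the 17 was at 0 in all libraries, and 16 had a mean of 1 CPM or more. Of 16 markers tested, 5 were higher with HNG against AngII and 0 lower, with a median log2 fold change of 0.30. Lyz2, the lysozyme gene of macrophages and other myeloid cells, was the most abundant, with means of 102 CPM with AngII and 171 CPM with HNG. Without it, a choice made after seeing the data, the other 16 summed to 231 to 281 CPM with AngII and 272 to 364 CPM with HNG, so that the groups overlapped. The mean of Cd68, a lysosomal protein of macrophages, was also higher with HNG (20.6 CPM with AngII and 33.1 CPM with HNG). The means of 4 of the 17 were lower with HNG, those of Adgre1 (3.37 and 2.62 CPM), C1qc (2.43 and 1.79 CPM), C1qb (3.78 and 3.64 CPM) and Cd163 (0.273 and 0.169 CPM). As a share of the summed markers, Cybb was 7.74% to 8.36% with AngII, 6.04% to 7.79% with HNG and 6.47% to 8.86% with MOTS-c. The corresponding shares of Ncf1 were 8.42% to 9.38%, 6.64% to 8.15% and 8.15% to 9.03%. Relative to the marker sum the HNG range of Ncf1 lay below that of AngII, while those of Cybb overlapped slightly. Without Lyz2 the shares overlapped for both genes, at 11.0% to 11.8% with AngII and 9.30% to 11.9% with HNG for Cybb and at 11.9% to 13.2% and 10.2% to 12.5% for Ncf1. Gpx1 and Gpx3 were set beside the same markers in the plot of genes against summed macrophage markers. Gpx3 equalled 31.2% to 34.2% of the marker sum with AngII and 28.8% to 32.4% with HNG, whereas Gpx1 equalled 13.9% to 19.0% and 12.0% to 16.2%. Without Lyz2 the ranges were 44.4% to 48.5% and 44.7% to 51.8% for Gpx3 and 19.5% to 26.9% and 18.7% to 26.0% for Gpx1. Endothelial markers also summed higher with HNG (103 to 113 CPM) than with AngII (80.2 to 90.5 CPM), and 4 of 8 smooth muscle and pericyte markers were lower. The part of these shifts in the results for the members was not tested. In bulk libraries fewer cells of a type and less RNA per cell cannot be told apart.

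**Figure D3:**
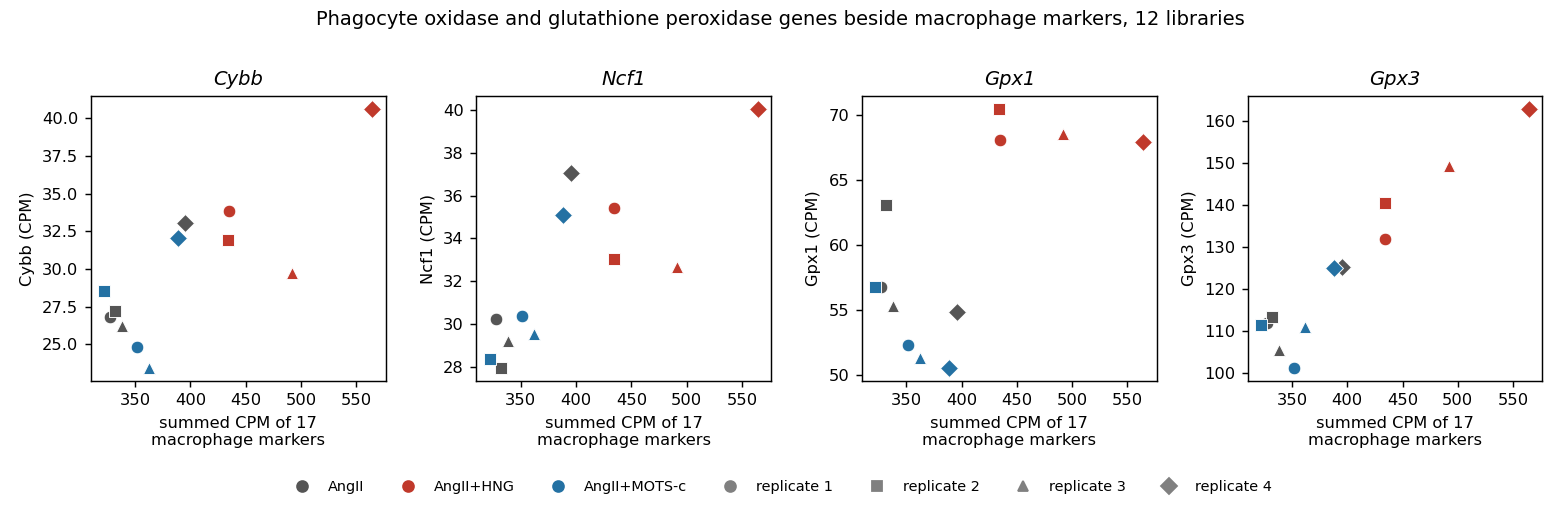
CPM of Cybb, Ncf1, Gpx1 and Gpx3 (vertical axes, not from 0) against the summed CPM of 17 macrophage markers (horizontal axis) in the 12 libraries, coloured by treatment, with the shape giving the replicate number. The HNG libraries lie to the right, at 434 to 564 CPM of markers, and replicate 4 is furthest right in each treatment.

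MOTS-c was compared with AngII alone in the same way, with the same AngII libraries as control. None of the 10 members passed the test with MOTS-c. Only 0.00690% of 14488 genes tested passed, a single gene, while 732 genes (5.05%), among them 2 of the 10 members, had an unadjusted p below 0.05. DESeq2 called 4 genes and limma on log2(FPKM + 1) called 1, and no member was among them. With a library left out the number ran from 0 to 3, at 3 without AngII+MOTS-c replicate 1. The 2 members were Sod3, at a log2 fold change of −0.10 ± 0.038 (edgeR adjusted p = 0.924), and Gpx1, at −0.12 ± 0.052 (edgeR adjusted p = 0.924). Sod3 was also the only member whose groups did not overlap, where 3.41% of all genes did not. Nox4 stood at 0.09 ± 0.066 (edgeR adjusted p = 0.931), with 3 of 4 MOTS-c libraries above the AngII mean. The remaining 7 members lay between −0.06 (Cybb) and 0.08 (Cyba) on the log2 scale, with edgeR adjusted p-values from 0.924 to 0.993. The median of the members was −0.024, against −0.00076 over all genes. The 95% intervals bound these values: for Gpx3 from −0.15 to 0.11, for Cat from −0.11 to 0.05 and for Cybb from −0.26 to 0.15.

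The peptides were then compared directly, which is the test of a difference between their effects, at doses that were not matched. With HNG Gpx1, Gpx3 and Sod3 were higher than with MOTS-c and Nox4 was lower. Thus 3 members were higher, where 2.64% of 14448 genes tested were, and 1 was lower, where 1.77% were. The call of Nox4 was lost in 10 and that of Sod3 in 2 of 19 alternatives, with the direction kept. The groups did not overlap for these 4 members, against 12.6% of all genes. Without AngII+MOTS-c replicate 1, 2 or 3 the number of all genes called was 324, 322 or 389 in place of 637, and without AngII+HNG replicate 2 it was 416. Cybb and Ncf1 also had all 4 HNG libraries above the MOTS-c mean but did not pass the test. Sod1, Sod2 and Cat differed by −0.02 ± 0.116, −0.06 ± 0.051 and 0.09 ± 0.053 on the log2 scale (edgeR adjusted p = 0.957, 0.539 and 0.372). The median of the members was 0.21, against 0.0023 over all genes. The plot of log2 fold changes sets the comparisons side by side.

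**Figure D4:**
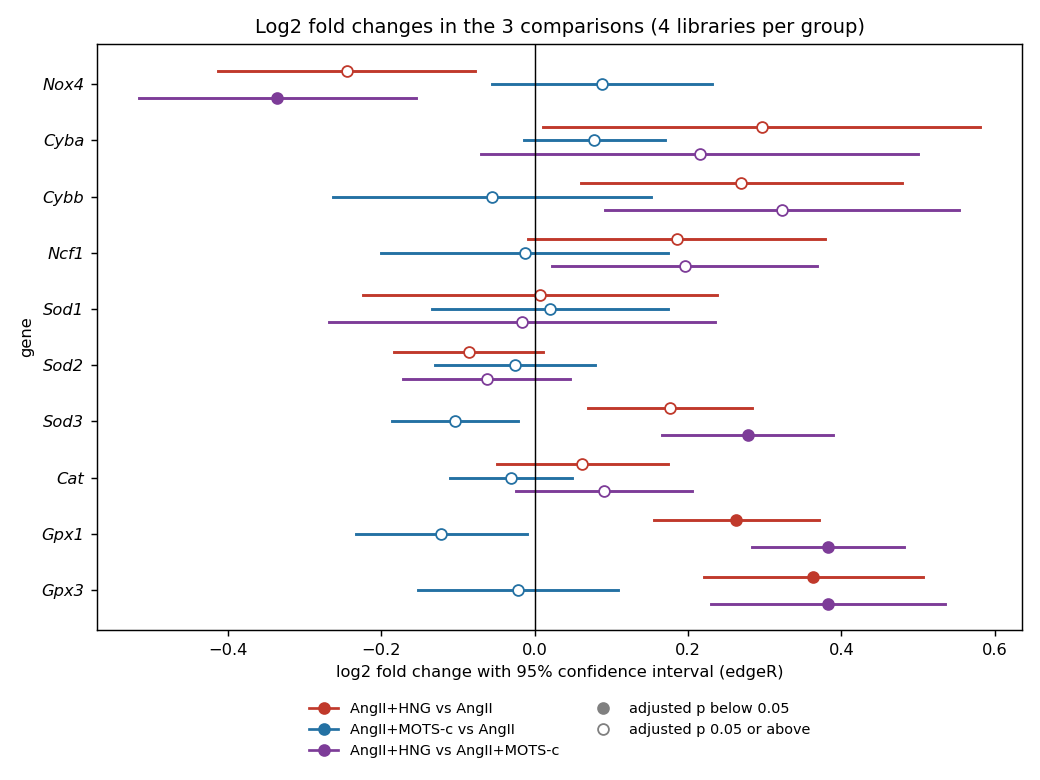
Log2 fold changes of the 10 genes (horizontal axis) with 95% confidence intervals in the 3 comparisons, each of 4 against 4 libraries, filled where the edgeR adjusted p-value was below 0.05. Filled points are Gpx1 and Gpx3 for HNG against AngII (0.26 and 0.36) and Nox4, Sod3, Gpx1 and Gpx3 for HNG against MOTS-c (−0.34, 0.28, 0.38 and 0.38), and no MOTS-c point against AngII is filled.

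The relatives of the members place these levels in their families. Among the catalytic oxidase subunits only Cybb and Nox4 were expressed at an appreciable level. Nox3 had 0 counts in all 12 libraries, Nox1 0 to 10 counts, and Duox1 and Duox2 stayed at or below 0.120 and 0.0676 FPKM. Cybb made up 74.7% ± 2.80 of the summed FPKM of this family with AngII, 80.0% ± 0.600 with HNG and 72.3% ± 6.60 with MOTS-c (SD, n = 4). The share of Nox4 was 24.7% ± 2.91, 19.4% ± 0.856 and 27.1% ± 6.53, subject to its varying length. By this measure Cybb, and not Nox4, was the most abundant catalytic subunit in these bulk libraries. The cytosolic phagocyte factor Ncf4 was low, with a median of 2.31 FPKM.

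The glutathione peroxidase family was dominated by genes outside the chosen members. Gpx8, an enzyme of the endoplasmic reticulum, took 27.4% of the family FPKM with AngII and Gpx4, which protects membrane lipids, 25.7%. Gpx7 took 16.8%, close to Gpx3 at 16.1%, and Gpx1 took 13.9%. Gpx2 had 0 to 3 counts per library and Gpx6 had 0. The family total was 412 to 455 FPKM with AngII, 472 to 493 FPKM with HNG and 408 to 429 FPKM with MOTS-c, so the HNG libraries lay above both other groups. The share of Gpx3 was 18.7% with HNG and that of Gpx8 24.0%. Gpx4 was higher with HNG than with MOTS-c, at a log2 fold change of 0.20 ± 0.042 (edgeR adjusted p = 0.0179). Against AngII it differed by 0.15 ± 0.048 and did not pass the test (edgeR adjusted p = 0.0958). Ccs, the copper chaperone of Sod1, had a median of 24.7 FPKM and a log2 fold change of 0.15 ± 0.109 with HNG (edgeR adjusted p = 0.499).

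A wider list of 75 redox genes in 9 roles gave a mixed picture with HNG, with 65 of them tested. With HNG 7 were higher and 2 lower, Gpx1 and Gpx3 among the former, and without the members 5 of 55 were higher and 2 lower. These are 10.8% higher and 3.08% lower for the whole list and 9.09% and 3.64% without the members, against 3.40% and 2.58% of all genes tested. The list was chosen with earlier results of these data known, so these shares, and those between the peptides, describe it and do not test it. The median log2 fold change of the list was 0.017, close to the 0.0043 of all genes tested. Xdh, xanthine dehydrogenase and a source of superoxide in its oxidase form, rose most, from 5.78 ± 0.498 to 11.1 ± 1.17 CPM, a log2 fold change of 0.95 ± 0.102 (edgeR adjusted p = 2.6e-04). Selenop, the plasma carrier of selenium, rose by 0.39 ± 0.073 (edgeR adjusted p = 0.00834). Hmox1, heme oxygenase 1 and a target of NRF2, rose by 0.29 ± 0.056 (edgeR adjusted p = 0.00912). Txnip, the inhibitor of thioredoxin, rose by 0.24 ± 0.048 (edgeR adjusted p = 0.00922), and Nrros, a regulator of Cybb protein in phagocytes, by 0.64 ± 0.163 (edgeR adjusted p = 0.0357). Slc7a11, the cystine carrier that feeds glutathione synthesis, fell by 0.28 on the log2 scale (SE 0.073, edgeR adjusted p = 0.0424). Maoa, a mitochondrial source of hydrogen peroxide, fell by 0.19 (SE 0.048, edgeR adjusted p = 0.0375).

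By role, 2 of 6 tested catalase and glutathione peroxidase genes were higher with HNG, 1 of 12 oxidase partners, 1 of 13 peroxiredoxins and thioredoxins, 1 of 6 genes of selenoprotein synthesis and selenium supply (Selenop) and 1 of 5 genes of the NRF2 group. None of the 4 catalytic oxidase subunits tested or of the 6 dismutase and copper supply genes passed the test with HNG. Of the 9 genes for glutathione synthesis and glutaredoxins 1 was lower and 0 higher, and of the 4 other sources of reactive species 1 was higher and 1 lower. With the 3.40% and 2.58% of all genes as background, counts of 1 in groups this small say little of a role. With MOTS-c none of the 65 passed edgeR's test, 4 had an unadjusted p below 0.05, where 5.05% of all genes tested did, and the median was −0.022. Between the peptides 8 of 65 were higher with HNG and 1 lower, or 12.3% and 1.54%, against 2.64% and 1.77% of all genes tested. Besides the members and Gpx4 these included Xdh at 0.83 ± 0.096 (edgeR adjusted p = 6.2e-04), Selenop at 0.45 ± 0.079 (edgeR adjusted p = 0.00613) and Hmox1 at 0.32 ± 0.051 (edgeR adjusted p = 0.00334).

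**Figure D5:**
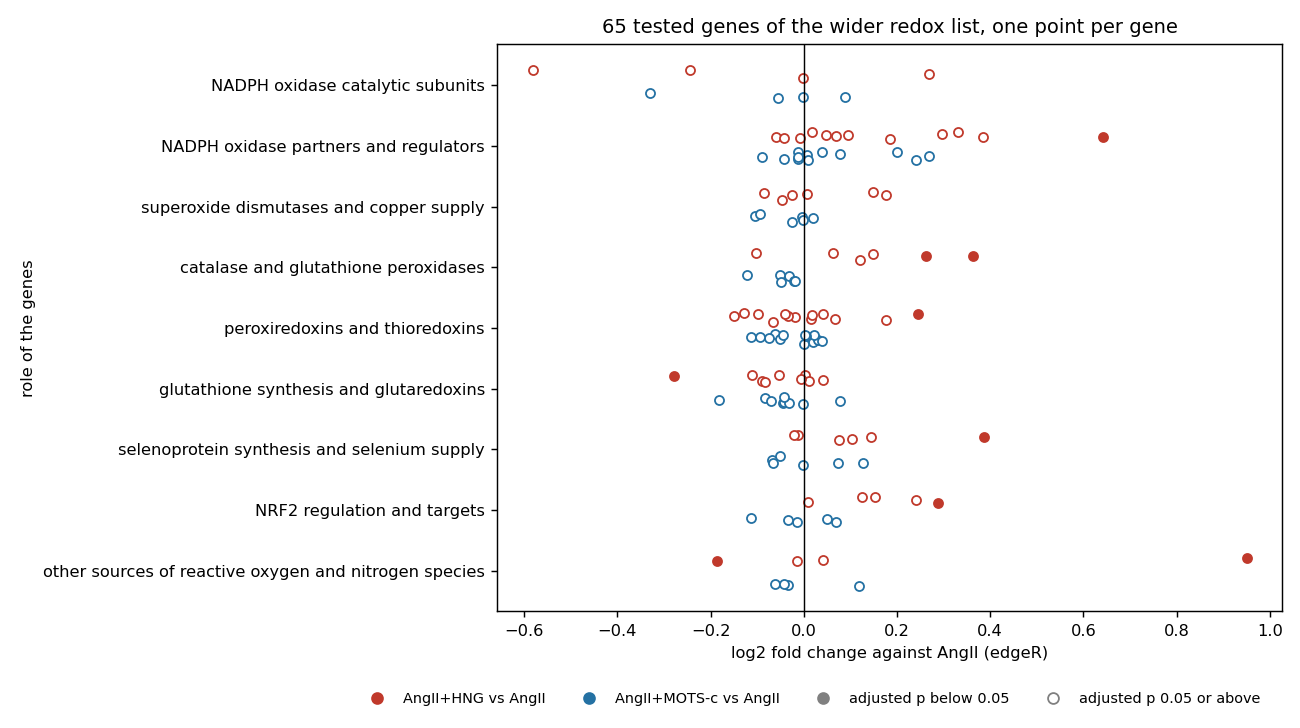
Log2 fold changes against AngII (horizontal axis) of the 65 tested genes of the redox list, 1 point per gene and treatment, in 9 rows by role, filled where the edgeR adjusted p-value was below 0.05. Of the HNG points 9 are filled, from −0.28 (Slc7a11) to 0.95 (Xdh), and of the MOTS-c points none.

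Within treatments the members did not vary as a single group. Pearson correlations of log2 CPM were computed over the 12 libraries after each treatment mean was subtracted, and they share library preparation and depth. Cybb and Ncf1 correlated at 0.82 and Cybb and Gpx3 at 0.73. Replicate 4 was the highest library of each treatment for all of Cybb, Ncf1 and Gpx3, and its part in these values was not tested. Cyba correlated with Sod3 at 0.81, whereas Nox4 and Sod1 stood at −0.78 and Cyba and Cat at −0.76. AngII+HNG replicate 3 was the highest library of all for Cyba, Sod3 and Sod1 and the lowest for Cat and Nox4. Without it, a choice made after seeing the data, the correlations over 11 libraries were 0.37 for Cyba and Sod3, 0.42 for Cyba and Cat, −0.68 for Nox4 and Sod1, 0.81 for Cybb and Ncf1 and 0.84 for Cybb and Gpx3. The first of these thus rested on that library and the second changed sign without it. The other values of Cyba also depended on that library. They went from 0.71 over 12 libraries to −0.046 over 11 with Sod1, from −0.41 to 0.50 with Nox4, from −0.083 to 0.82 with Ncf1, from −0.24 to 0.62 with Cybb, from −0.21 to −0.60 with Sod2, from −0.20 to −0.75 with Gpx1 and from 0.26 to 0.67 with Gpx3. The order was taken over 13421 genes with a named symbol that were tested in every comparison. The 5 most like Nox4 were Kctd12 (0.96), Mier3 (0.92), Celf2 (0.91), Osbpl7 (0.90) and Tshz1 (0.90). For Gpx1 they were Agpat1 (0.93), Gpaa1 (0.89), Tspan31 (0.88), Ppa1 (0.88) and Slc9a3r2 (0.87), and for Gpx3 they were Parp9 (0.96), Ssc5d (0.94), Col6a1 (0.93), Anpep (0.93) and Hsd17b11 (0.92). Those of Cybb were Mospd1 (0.98), Igf1 (0.96), Abcc9 (0.96), Myo7a (0.96) and Gas7 (0.95), and those of Ncf1 were Cert1 (0.97), Zfp36l1 (0.96), Cd53 (0.96), Pdgfrb (0.96) and Bhlhe41 (0.96). Cyba was most like Erh (0.96), RGD1308134 (0.95), Raly (0.94), Tax1bp3 (0.94) and Eml3 (0.94). The dismutases had Tmem205 (0.95), Fuom (0.95), Rbm17 (0.94), Pdhb (0.94) and Cops9 (0.93) beside Sod1, Tomm40l (0.92), Cabin1 (0.88), Rrlt (0.86), Pnpt1 (0.85) and Spopl (0.85) beside Sod2, and Cpz (0.96), Bckdha (0.94), Cst3 (0.94), Eef1g (0.94) and Surf6 (0.93) beside Sod3. Cat had Lrpprc (0.93), Golga3 (0.93), Nab1 (0.92), Cplane1 (0.91) and Lrrc8d (0.91). Without AngII+HNG replicate 3 the correlations of the 5 genes named for Cyba ran from −0.26 to 0.59 and those for Cat from 0.68 to 0.84, while those for the other 8 members ran from 0.83 to 0.97. With 12 libraries and this many genes, high values arise at the top of any such order.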

How the data were processed

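Bulk mRNA libraries of rat atrial fibroblasts, 4 for each of the treatments AngII, AngII+HNG and AngII+MOTS-c, were analysed. The deposited counts are whole numbers of reads for each gene with no scaling applied. The deposited FPKM values are scaled to gene length and library total, but those of Nox4 did not correspond to its counts over a single length. The submitters' processing notes name HISAT2, Picard 1.41 and SAMtools 0.1.18. The counting tool, the genome build, the use of strand and the handling of reads shared with near-identical gene copies are not given in the sources used here. Treatments and replicate numbers were taken from the sample titles, and doses and times from the study's methods.

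Each comparison was tested on its own 8 libraries with edgeR 4.0.16 in R 4.3.3, with filterByExpr, TMM scaling, glmQLFit and glmQLFTest. P-values were adjusted by Benjamini-Hochberg over all genes tested at a threshold of 0.05, and standard errors were derived from the F statistic. Log2 CPM used a prior count of 2. The computation was tested on simulated data. The members, the redox list, the marker lists and the tests were chosen with earlier results of these data known. The rule for named genes took all 10 members in every comparison, the redox list genes past the threshold, family relatives by their level, and the 5 genes most correlated with each member. A gene of the redox list that this rule would name is not reported here. Between libraries of a group the counts varied 4.40 to 19.4 times more than sampling noise, so none was counted as a repeat deposit of another, which does not show that they came from separate cultures.

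Alternatives were DESeq2 1.42.0, RLE size factors, no filter, a minimum of 10 counts per library, a single fit over all 12 libraries, blocks made from the replicate number or from the library name, replicates 2 and 3 summed, each library left out, libraries numbered 4 left out, limma 3.58.1 on log2(FPKM + 1) or log2(FPKM + 0.1), and a limit of 1.5-fold. Depth ranged from 27960586 to 38322354 counts.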

Additional observations from a re-analysis of the deposited data

Results flagged for a closer look

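Cyba in AngII+HNG replicate 3 stood at 59.6 CPM, where the other 3 libraries of the group lay between 36.2 and 39.1 CPM. Cybb in AngII replicate 4 stood at 33.1 CPM, where the other 3 lay between 26.2 and 27.2 CPM. Both gaps exceeded Dixon's 95% limit for 4 samples. Of 30 groups of 4 examined 2 did so, and chance gives about 5%. The effects of the 2 peptides differed by edgeR's direct test for 4 members, with log2 fold changes of HNG against MOTS-c of −0.34 for Nox4, 0.28 for Sod3, 0.38 for Gpx1 and 0.38 for Gpx3. Of 19 alternatives, 10 lost the call of Nox4 (adjusted p-values of up to 0.416, with limma) and 2 that of Sod3 (up to 0.0529, with edgeR).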

How the results depend on the processing

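Of 570 alternative values of the 10 members, 521 kept their direction and side of the threshold, 14 gained and 12 lost a call, and 23 changed sign, all of the last without a call. With HNG against AngII 2 members were called, 5 with the replicate block, 5 with a block by library name, 0 at a limit of 1.5-fold, and 2 to 3 with a library left out. With HNG against MOTS-c 4 were called, 2 without the libraries numbered 4, 0 at 1.5-fold and 3 to 4 with a library left out. With MOTS-c against AngII 0 were called throughout.

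Of all genes, HNG against AngII called 869, 577 with replicates 2 and 3 summed, 541 without the libraries numbered 4, 127 at 1.5-fold, and 431 to 932 with a library left out, at 431, 485 and 512 without AngII replicates 1, 2 and 3. The same comparison called 1035 in one fit, 1111 with the replicate block, 1113 with the block by library name and 1192 with DESeq2. MOTS-c against AngII called 1, 0 in one fit, with summing and without the libraries numbered 4, 2 with the replicate block, 4 with DESeq2 and 0 to 3 with a library left out (3 without AngII+MOTS-c replicate 1). HNG against MOTS-c called 637, 975 in one fit, 1054 with the replicate block, 377 without the libraries numbered 4, 1034 with DESeq2, 105 at 1.5-fold, and 322 to 625 with a library left out, at 324, 322 and 389 without AngII+MOTS-c replicates 1, 2 and 3 and 416 without AngII+HNG replicate 2. Of the redox list, HNG against AngII called 9, 14 with the block by library name, 5 without the libraries numbered 4, 2 at 1.5-fold and 6 to 10 with a library left out. HNG against MOTS-c called 9, 15 with the replicate block, 5 without the libraries numbered 4, 1 at 1.5-fold and 6 to 9 with a library left out. The cause of these changes, up or down, was not tested.

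Sod1 with HNG against AngII changed sign to −0.010 with the replicate block, −0.0060 with the block by library name and −0.047 with summing, and ran from −0.13 to 0.082 with a library left out. Against MOTS-c it was 0.15 without the libraries numbered 4 and −0.15 to 0.074 with a library left out. With MOTS-c against AngII, leaving out the libraries numbered 4 gave 0.015 for Ncf1, −0.11 for Sod1 and 0.0049 for Sod2, and the block by library name gave 0.016 for Gpx3. With a library left out that comparison gave −0.14 to 0.027 for Cybb, −0.080 to 0.082 for Ncf1, −0.066 to 0.059 for Sod1, −0.054 to 0.0039 for Sod2 and −0.078 to 0.026 for Gpx3.

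The replicate numbers were not treated as pairs. Deviations from group means of libraries that share a number correlated at −0.075 to 0.14 for HNG with AngII. They correlated at 0.000026 to 0.12 for MOTS-c with AngII and −0.014 to 0.21 for HNG with MOTS-c. Of these, 5 of 12 correlated best with their own number. The libraries numbered 4 had the highest value of each comparison, at 0.14, 0.12 and 0.21, and each time correlated best with their own number. The replicate block added Cybb at 0.27 (edgeR adjusted p = 0.00805), Ncf1 at 0.19 (edgeR adjusted p = 0.0403) and Sod3 at 0.17 (edgeR adjusted p = 0.0388) for HNG against AngII, and Cybb at 0.32 (edgeR adjusted p = 0.00598) and Ncf1 at 0.20 (edgeR adjusted p = 0.0384) for HNG against MOTS-c. Depth did not limit the members, the lowest of which had 431 counts.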
